A study of Mus musculus with 12 samples.

Results

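The genes described here are those of adult hemoglobin and of heme synthesis, chosen by name: the alpha-globins Hba-a1 and Hba-a2, the beta-globins Hbb-bs and Hbb-bt, the alpha-globin chaperone Ahsp and the heme enzymes Alas2, Alad, Urod and Fech. Of these 9 genes, 8 were measured among the 53465 genes of the expression table, and Ahsp was not analysed here. They were read by RNA-seq of poly-A RNA from LSKs (Lin- Sca-1+ c-Kit+ cells, the bone marrow fraction that holds hematopoietic stem cells and multipotent progenitors) of male mice 8 to 10 weeks old. The 4 groups of 3 libraries were untreated Tespa1+/+, untreated Tespa1-/-, Tespa1+/+ after 5-FU and Tespa1-/- after 5-FU. The treated mice had been given 150 mg/kg of 5-fluorouracil (5-FU), a drug that kills dividing cells, intraperitoneally, and were sampled at day 9. Tespa1-/- mice carry the B6.129S-Tespa1tm1Smoc allele on a C57BL/6 background, and the Tespa1+/+ mice were littermates. Before the sort, mature cells were depleted by a lineage kit, and the lineage antibodies of the study include anti-Ter-119, which binds erythroid cells. The labels do not say that each library came from a separate mouse, so p-values measure only the spread between these libraries.

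Hemoglobin is a tetramer of alpha and beta chains, each holding a heme. Heme is made in a fixed order of steps that starts and ends in the mitochondrion: Alas1 in most cells or Alas2 in erythroid cells makes 5-aminolevulinate, and then a chain of enzymes that includes Alad, Uros, Urod, Cpox and Ppox builds the porphyrin ring into which Fech inserts iron. Alas2 and high globin levels are hallmarks of erythroid maturation, whereas the other enzymes are used by every cell that makes heme. In erythroid cells, globin genes and Alas2 are known targets of GATA1 and KLF1, factors that bind GATA and CACC motifs.

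The sequence just upstream of a gene is shown for 4 members: an alpha-globin and a beta-globin, Alas2 as the erythroid enzyme and Urod as the member that did not pass the main comparison below. The sequences are those of RefSeq (GRCm38.p6), read 5′ to 3′ on the strand of the gene, and stop where the first annotated transcript of the gene in either RefSeq or GENCODE M21 begins. Capitals mark GATA motifs (the letters AGATAA as well as the forms TGATAA with another first base, AGATAG with another last base and TGATAG with both, on either strand) and CACC motifs (CCNCNCCC on either strand), which can share at most 1 base.
Hba-a2, chr11:32296242-32296488, + strand, 247 bases: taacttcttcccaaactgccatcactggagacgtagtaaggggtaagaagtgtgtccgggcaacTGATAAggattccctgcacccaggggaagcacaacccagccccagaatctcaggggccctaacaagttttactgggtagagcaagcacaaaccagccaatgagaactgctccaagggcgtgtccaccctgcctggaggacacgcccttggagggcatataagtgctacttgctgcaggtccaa
Hbb-bt, chr7:103813997-103814173, - strand, 177 bases: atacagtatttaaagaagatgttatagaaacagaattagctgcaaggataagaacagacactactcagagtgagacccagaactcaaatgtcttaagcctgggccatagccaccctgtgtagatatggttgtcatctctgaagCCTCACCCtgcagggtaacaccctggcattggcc
Alas2, chrX:150547167-150547374, + strand, 208 bases: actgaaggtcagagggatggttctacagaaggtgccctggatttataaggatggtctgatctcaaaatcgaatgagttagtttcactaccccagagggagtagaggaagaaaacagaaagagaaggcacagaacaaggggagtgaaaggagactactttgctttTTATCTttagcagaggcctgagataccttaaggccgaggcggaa
Urod, chr4:116994414-116994663, - strand, 250 bases: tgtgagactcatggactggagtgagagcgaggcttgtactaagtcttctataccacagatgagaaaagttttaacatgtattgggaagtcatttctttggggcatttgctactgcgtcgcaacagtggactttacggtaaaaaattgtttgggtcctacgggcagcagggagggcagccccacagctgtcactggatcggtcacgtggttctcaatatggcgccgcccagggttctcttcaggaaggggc

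RefSeq promoter entries matched 7 of the 8 measured members, Fech not among them. In the 250 bases before the RefSeq start, 4 of these 7 genes held a GATA motif (Hba-a1, Hba-a2, Hbb-bs and Alas2), against 26.5% of 32851 promoter windows of that length. A CACC motif was present in 4 of 7 (Hbb-bs, Hbb-bt, Alas2 and Alad), against 45.9% of windows. The 4 CACC matches of Alas2 lay in the bases left out of the printed stretch. A TATA motif (the letters TATAAA as well as the form TATAAG with another last base, on either strand) was found in 5 of 7, the globins and Alas2, against 17.0% of windows, and CCAAT on either strand in 6 of 7, all but Alas2, against 33.8%. Hba-a1 and Hba-a2 had the same promoter: 297 of 297 aligned bases matched. These matches are a description of letters in a window and not of binding.

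Hba-a1 (ENSMUSG00000069919, GRCm38 chromosome 11, 32283511 to 32284465) and Hba-a2 (ENSMUSG00000069917, chromosome 11, 32296489 to 32297298) lie on the plus strand. Hbb-bt (ENSMUSG00000073940, chromosome 7, 103812524 to 103813996) and Hbb-bs (ENSMUSG00000052305, chromosome 7, 103826534 to 103828096) lie on the minus strand. Reads can be shared within each pair: of all 100-base stretches of the main Hba-a2 transcript, 74.5% occur unchanged in Hba-a1, and of those of Hbb-bt, 54.8% occur in Hbb-bs. The split between the genes of a pair is therefore uncertain, and the sums are given beside the single genes. Alas2 (ENSMUSG00000025270, chromosome X, 150547375 to 150570638) overlaps Apex2 on the opposite strand, and whether strand was used in counting is not given in the sources used here. Apex2 had 1053 counts over the 3 Tespa1+/+ libraries and 931 over the 3 Tespa1-/- libraries after 5-FU. Alad (ENSMUSG00000028393, chromosome 4, 62509169 to 62519918), Urod (ENSMUSG00000028684, chromosome 4, 116989965 to 116994413) and Fech (ENSMUSG00000024588, chromosome 18, 64456550 to 64489066) overlap no other annotated gene.

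Between 22118154 and 28275079 counts were assigned to genes per library. Tespa1 itself was at 43.0 to 49.8 CPM (TMM-scaled CPM, the share of a gene in the counts of its library) in untreated Tespa1+/+ and at 34.5 to 35.0 CPM in untreated Tespa1-/- libraries, and at 47.2 to 57.5 and 17.3 to 20.8 CPM in the same order after 5-FU, so it was lower in every Tespa1-/- library but not absent. Of the genes of the sort markers, Kit was at 328.5 to 349.4 CPM in Tespa1-/- and 459.8 to 473.7 CPM in Tespa1+/+ libraries after 5-FU (log2 fold change -0.45, edgeR adjusted p = 0.00022), and Ly6a, which encodes Sca-1, at 10.6 to 20.2 and 21.2 to 45.2 CPM (log2 fold change -1.24, edgeR adjusted p = 0.026). The summed level of 12 LSK and stem markers ran from 939 to 1016 CPM in Tespa1-/- after 5-FU and from 1534 to 1599 CPM in Tespa1+/+ after 5-FU.

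The main question for these genes was how they differed between the genotypes at day 9 after 5-FU. All 4 adult globin genes rose in Tespa1-/- LSKs, by 3.18 to 7.02 on the log2 scale, and so did the erythroid enzyme Alas2, by 6.27. Alad and Fech, the enzymes of the second and the last step, rose about as much as each other, by 1.12 and 1.11. Urod, which decarboxylates uroporphyrinogen, did not pass the test. In all, 7 of the 8 measured members were called higher and 0 lower at an adjusted p below 0.05 (quasi-likelihood test of edgeR, Benjamini-Hochberg adjustment over all genes; SE below is the standard error of a log2 fold change), where 7.34% of the 17239 genes tested were called higher and 5.78% lower. Of the 7, Hba-a2 and Alas2 passed the filter on low counts through the Tespa1-/- libraries, where they were high, and could then hardly fail to differ. In these bulk libraries, more cells of a type cannot be told apart from more RNA per cell.

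After 5-FU, 74, 133 and 26 counts of Hba-a1 were found in Tespa1+/+ and 3558, 3554 and 2728 in Tespa1-/- LSKs. These equal 2.89, 5.12 and 1.07 CPM against 130.1, 137.7 and 123.2 CPM, so the groups lay far apart. Hba-a1 rose by 5.41 on the log2 scale (SE 0.37, edgeR adjusted p = 2.7e-05). Hba-a2 had 0, 11 and 0 counts in Tespa1+/+ and 423, 469 and 546 counts in Tespa1-/- libraries, that is 0, 0.42 and 0 against 15.5, 18.2 and 24.7 CPM. All of its Tespa1+/+ counts came from replicate 2. Its rise of 7.02 (SE 0.71, edgeR adjusted p = 0.00027) therefore rests on 11 counts on the low side, and it reached 11.9 under the alternatives. The lowest alternative value, 5.54, is that of the sum with Hba-a1. Hba-a1 and Hba-a2 summed to 1 gene rose by 5.54 (SE 0.39, edgeR adjusted p = 3.0e-05).

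The beta-globins had smaller fold changes than the alpha-globins (their ratio is compared below). Hbb-bs had 76, 68 and 23 counts in Tespa1+/+ and 833, 762 and 962 counts in Tespa1-/- libraries, or 2.96, 2.62 and 0.95 against 30.5, 29.5 and 43.4 CPM (log2 fold change 3.97, SE 0.36, edgeR adjusted p = 0.00014). Hbb-bt had 325, 187 and 223 counts in Tespa1+/+ and 2052, 2477 and 2061 in Tespa1-/- libraries, or 12.7, 7.21 and 9.21 against 75.0, 96.0 and 93.1 CPM. It rose by 3.18 (SE 0.20, edgeR adjusted p = 1.4e-05), with the smallest error of the 4 globins. The 2 beta-globins summed to 1 gene rose by 3.36 (SE 0.19, edgeR adjusted p = 6.8e-06). For each globin, every Tespa1-/- library was above every Tespa1+/+ library. The share of all genes whose groups lie apart in this way was not counted, here or for the members below.

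Alas2, the erythroid enzyme of the first heme step, was near the detection limit in Tespa1+/+ LSKs after 5-FU, with 7, 5 and 0 counts, and had 365, 346 and 241 counts in Tespa1-/- libraries. In CPM these are 0.27, 0.19 and 0 against 13.3, 13.4 and 10.9. A limit of 3 counts corresponds to 0.109 to 0.136 CPM on plain library totals in the treated libraries, for counting error alone. The log2 fold change of 6.27 (SE 0.54, edgeR adjusted p = 0.00010) again has few counts on the low side, 12 over 3 libraries.

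Among the enzymes that most cells use, Alad had 23.5, 20.2 and 22.7 CPM in Tespa1+/+ and 45.0, 50.8 and 49.2 CPM in Tespa1-/- libraries after 5-FU (log2 fold change 1.12, SE 0.11, edgeR adjusted p = 0.00024). Fech had 27.9, 23.6 and 28.2 CPM against 61.3, 62.1 and 49.2 CPM (log2 fold change 1.11, SE 0.13, edgeR adjusted p = 0.00051). Neither gene's groups overlapped. Urod had 43.6, 33.6 and 40.0 CPM against 43.1, 63.9 and 51.2 CPM, with Tespa1-/- replicate 1 below Tespa1+/+ replicate 1. The fitted change of 0.43 (SE 0.16) missed the threshold in edgeR (adjusted p = 0.11) and met it in DESeq2 (adjusted p = 0.049).

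**Figure D1:**
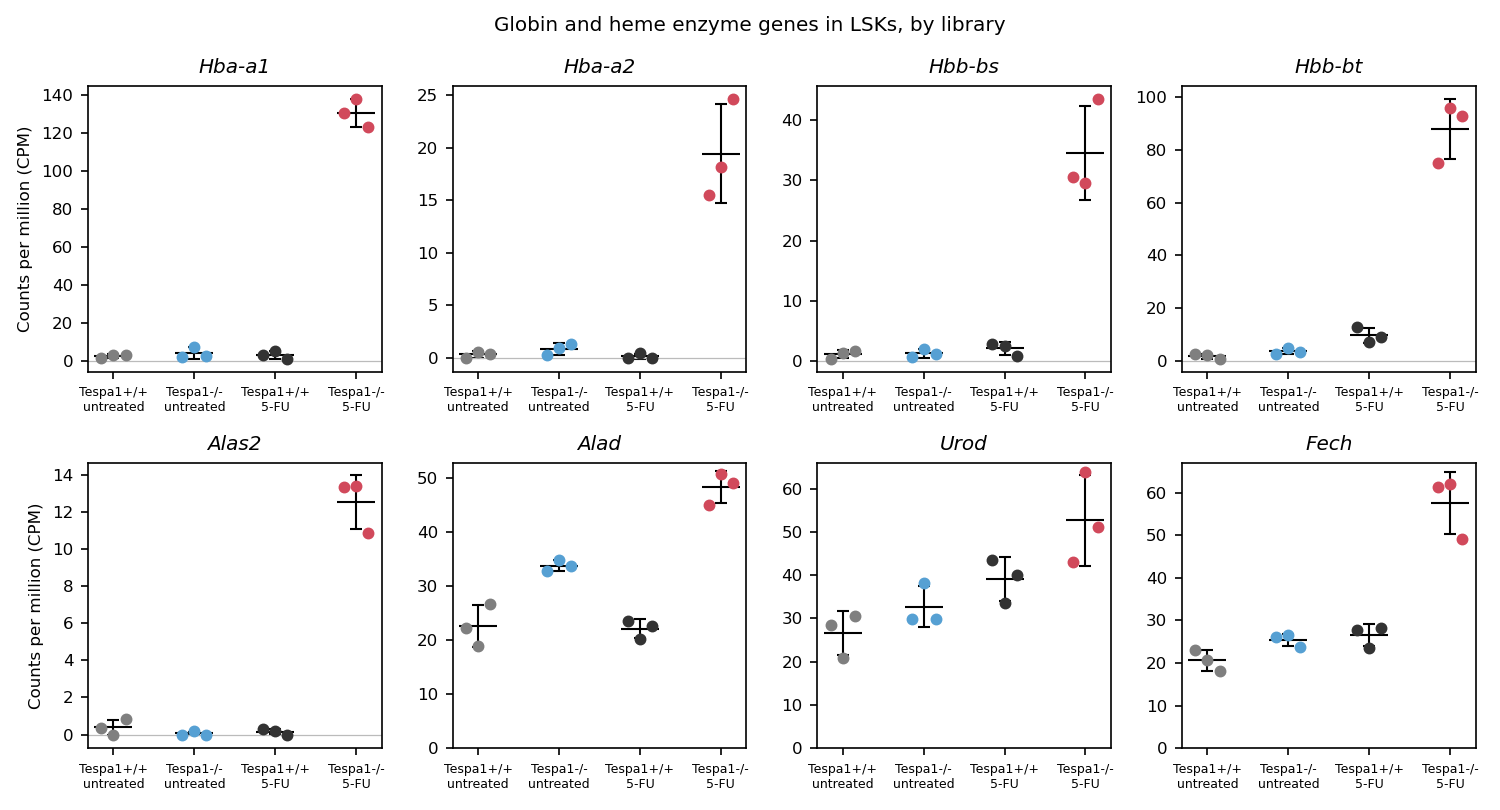
Level of each measured gene in every library, in CPM (linear axes that differ between panels). Points are libraries, and the line and bars are the mean and SD of 3 libraries. The 3 Tespa1-/- libraries after 5-FU stand above the other 9 libraries for every gene but Urod, whose lowest Tespa1-/- value of 43.1 CPM lies below the highest Tespa1+/+ value of 43.6 CPM. The share of all genes that lie apart in this way was not counted.

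Alas1, Uros, Cpox and Ppox, further enzymes of the pathway, were read in the same fit. Cpox, which oxidises coproporphyrinogen, rose most after Alas2: from 38.2 ± 1.82 CPM in Tespa1+/+ to 122.8 ± 9.40 CPM in Tespa1-/- LSKs after 5-FU (SD, n = 3 each), that is by 1.68 (SE 0.08, edgeR adjusted p = 4.0e-06). Alas1, the housekeeping enzyme of the first step, rose from 55.5 ± 3.95 to 130.2 ± 4.62 CPM (log2 fold change 1.22, edgeR adjusted p = 1.4e-05). Uros was at 6.59 ± 0.845 and 9.96 ± 0.736 CPM and Ppox at 18.2 ± 1.99 and 22.4 ± 1.43 CPM, and neither passed the test (adjusted p = 0.086 and 0.22 from edgeR). Of the 8 heme enzyme genes read, 5 rose, 0 fell, and Uros, Urod and Ppox did not pass.

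The step from glycine and succinyl-CoA to 5-aminolevulinate is thus read by a pair of genes. Per kilobase of the longest coding transcript, Alas2 made up 12.5% to 14.8% of the summed Alas1 and Alas2 level in Tespa1-/- LSKs after 5-FU and 0% to 0.88% in Tespa1+/+ LSKs after 5-FU. It made up 0% to 3.07% in untreated Tespa1+/+ and 0% to 0.47% in untreated Tespa1-/- LSKs. Alas1 therefore remained the higher gene of the pair in all 12 libraries, also where Alas2 was highest.

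**Figure D2:**
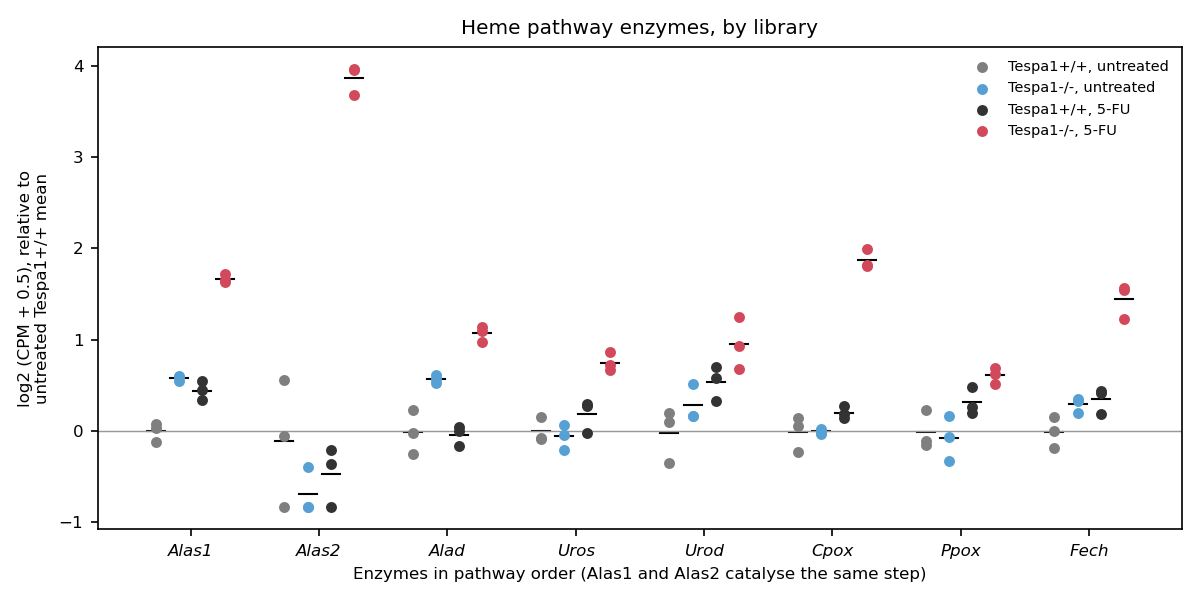
Heme enzymes read here, in the order of the pathway (x axis), as log2 (CPM + 0.5) relative to the mean of untreated Tespa1+/+ libraries (y axis). Points are libraries and lines are means of 3. Tespa1-/- LSKs after 5-FU stand highest at each enzyme by their mean, with the widest gap at Alas2 and the narrowest gaps to Tespa1+/+ after 5-FU at Ppox, Urod and Uros, which did not pass the test.

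Next, the genotypes were compared without treatment. Among the members, only Alad was called, from 22.4, 19.0 and 26.8 CPM in untreated Tespa1+/+ to 32.8, 34.9 and 33.8 CPM in untreated Tespa1-/- libraries (log2 fold change 0.58, SE 0.14, edgeR adjusted p = 0.047). The groups did not overlap, but the call was lost with no filter on low counts (adjusted p = 0.063) and, of 6 fits without 1 library, in 5 (adjusted p from 0.096 to 0.18 over these fits). In this comparison 1.64% of 17055 genes were called higher and 3.59% lower, and 7 members were tested, Alas2 being too low. Alas1 was called as well, from 40.6 ± 2.92 to 61.1 ± 1.28 CPM (SD, n = 3 each, log2 fold change 0.59, edgeR adjusted p = 0.0048), so that 2 of the 7 enzymes tested were higher without treatment.

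Globin counts were low in all untreated libraries. Hba-a1 had 34, 64 and 66 counts in Tespa1+/+ and 40, 165 and 60 in Tespa1-/- libraries, and Hbb-bt had 73, 46 and 17 against 61, 114 and 78. Hbb-bs had 12, 33 and 39 counts against 16, 47 and 27, and Hba-a2 had 0, 13 and 8 against 5, 21 and 31. In CPM, the ranges of the genotypes overlapped for Hba-a1, Hba-a2 and Hbb-bs, but not for Hbb-bt, which was at 0.77 to 2.60 CPM in Tespa1+/+ and 2.68 to 5.06 CPM in Tespa1-/- libraries. None of the 4 passed edgeR's test (adjusted p = 0.28 for Hbb-bt, 0.56 for Hba-a1, 0.56 for Hba-a2 and 0.95 for Hbb-bs), with standard errors from 0.46 to 1.11 on the log2 scale at this depth. Without untreated Tespa1-/- replicate 2, which held the most Hba-a1 counts of its group, the log2 fold change of Hba-a1 went from 0.74 to -0.09 and that of Hbb-bs from 0.13 to -0.36.

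The treatment was then compared within each genotype. These comparisons use the same libraries as those above and are not independent of them. In Tespa1+/+ LSKs, Hbb-bt was the only member of 6 tested that was called: it was at 2.60, 2.04 and 0.77 CPM in untreated libraries and at 12.7, 7.21 and 9.21 CPM after 5-FU (log2 fold change 2.41, SE 0.43, edgeR adjusted p = 0.0091). Of the 17002 genes tested there, 3.77% were called higher and 4.18% lower. Hbb-bs had a log2 fold change of 0.84 and Hba-a1 of 0.37, neither past the test (adjusted p = 0.52 and 0.78 from edgeR), while Hba-a2 and Alas2 were too low to be tested. Hbb-bs and Hbb-bt summed to 1 gene rose by 1.97 (SE 0.27, edgeR adjusted p = 0.0024). Of the enzymes, Alas1 rose (log2 fold change 0.45, edgeR adjusted p = 0.028), and Urod, with a log2 fold change of 0.56, did not pass edgeR's test (adjusted p = 0.081) but did pass DESeq2 (adjusted p = 0.019). Alad had 22.7 ± 3.91 CPM before and 22.1 ± 1.73 CPM after 5-FU (SD, n = 3 each).

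In Tespa1-/- LSKs, all 8 measured members and the 4 other enzymes rose after 5-FU. Here 10.7% of 17228 genes were called higher and 8.64% lower. Alas2 rose from 0, 4 and 0 counts to 365, 346 and 241 counts (log2 fold change 7.61, SE 0.57, edgeR adjusted p = 3.6e-05). Alas2 passed the filter through the treated libraries, and its fold rests on 4 counts on the low side and ran from 7.06 to 11.2 under the alternatives, so it is not read as a size. The 4 globins rose by 4.52 to 5.05 on the log2 scale. Cpox rose by 1.88, Fech by 1.16, Alas1 by 1.08, Uros by 0.85, Ppox by 0.68, Urod by 0.68 and Alad by 0.50 on the log2 scale. The call of Urod was lost when untreated Tespa1-/- replicate 1 or replicate 3 was left out, with a log2 fold change of 0.62 in both fits (adjusted p = 0.065 and 0.066 from edgeR).

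**Figure D3:**
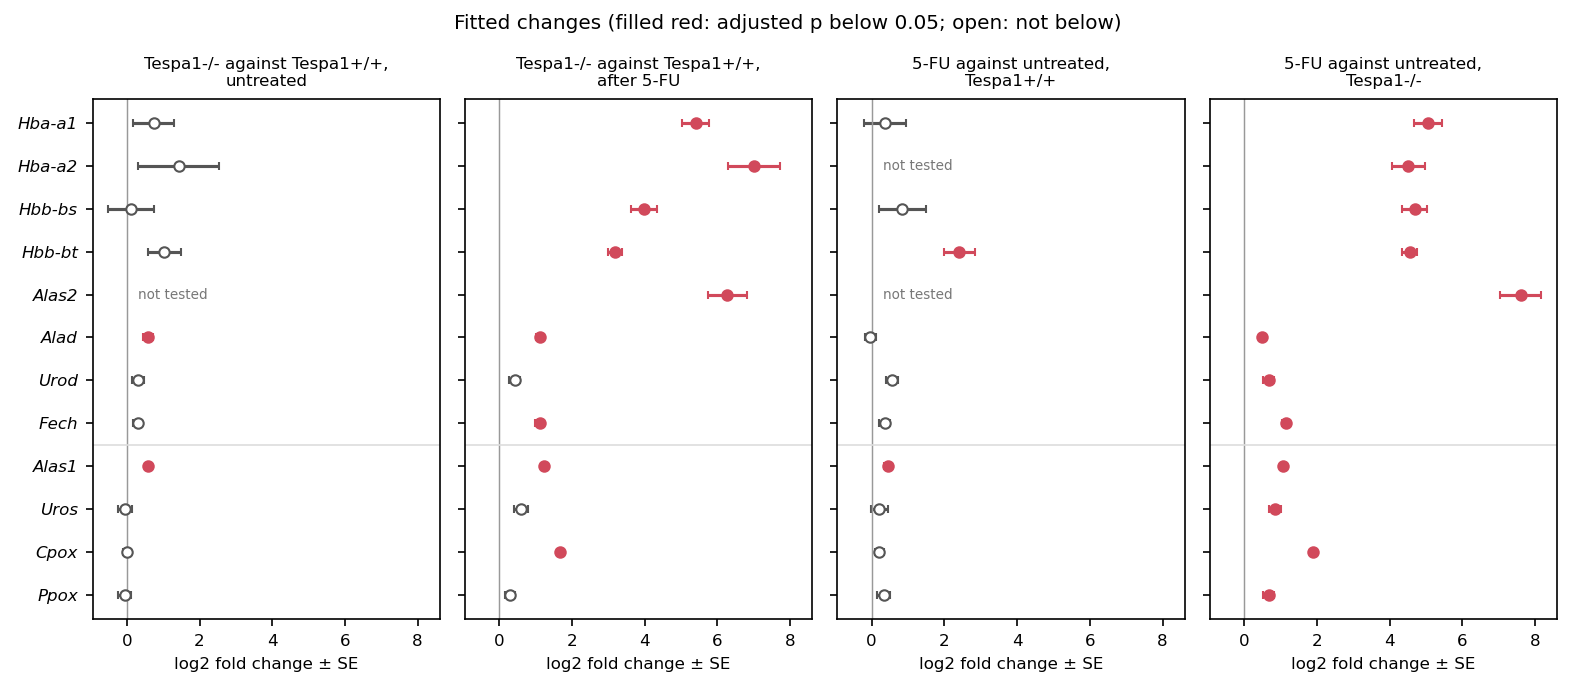
Fitted log2 fold changes with their standard errors (x axis) for the measured members and, under the line, the 4 other heme enzymes, in 4 comparisons. Filled red points have an adjusted p below 0.05 and open points do not. The 4 globins and Alas2 lie between 3.18 and 7.02 in the second panel, and all genes are filled in the last one.

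Whether the genotype difference itself differed between treated and untreated LSKs was tested as an interaction over the 12 libraries, where 3.02% of 18696 genes were called higher and 1.99% lower. It passed for 6 of the 8 members: Alas2, Hba-a2, Hba-a1 (4.66, SE 0.74), Hbb-bs (3.83, SE 0.71), Hbb-bt (2.17, SE 0.46) and Fech (0.81, SE 0.18), all on the log2 scale and with adjusted p from 0.0024 to 0.040 (edgeR's quasi-likelihood test). Alas2 and Hba-a2 passed the filter on low counts mainly through the treated Tespa1-/- libraries. Alas2 had 28, 4 and 12 counts in all in untreated Tespa1+/+, untreated Tespa1-/- and treated Tespa1+/+ libraries, and Hba-a2 had 21, 57 and 11, so their fitted values of 8.89 (SE 1.47) and 5.56 (SE 1.41) depend on few counts and are not read as sizes. The genotype difference of Hba-a1, Hbb-bs and Hbb-bt was larger after 5-FU than without treatment by more than the spread between libraries. The call of Hba-a2 was lost with DESeq2 (adjusted p = 0.086) and, of 12 fits without 1 library, in 9. That of Fech was lost in 4 of 12, with adjusted p up to 0.057, and that of Hbb-bt without untreated Tespa1+/+ replicate 1 (adjusted p = 0.061). Alad (0.55, edgeR adjusted p = 0.094) did not pass, but was called with DESeq2 (adjusted p = 0.048) and without untreated Tespa1+/+ replicate 2 (edgeR adjusted p = 0.035). Urod (0.13, edgeR adjusted p = 0.84) did not pass. Of the other enzymes, Cpox (1.68) and Alas1 (0.64) passed, Uros (0.65, adjusted p = 0.19) and Ppox (0.36, adjusted p = 0.46) did not.

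The globins were then compared with each other. Together, the 4 adult globin genes took 0.0250%, 0.0280% and 0.0285% of all counts in Tespa1-/- LSKs after 5-FU, and 0.00188%, 0.00157% and 0.00115% in Tespa1+/+ LSKs after 5-FU. The mean share was 17.7 times higher in Tespa1-/- LSKs, and the groups did not overlap (p = 0.1 in a two-sided exact permutation test, the lowest value possible with 3 libraries against 3). In untreated LSKs the share was 0.00042% to 0.00068% in Tespa1+/+ and 0.00053% to 0.00154% in Tespa1-/- libraries, and these ranges overlapped (exact permutation p = 0.3). With 5-FU the mean share was 2.73 times higher in Tespa1+/+ and 27.9 times higher in Tespa1-/- LSKs. Treated and untreated libraries did not overlap in either genotype (exact permutation p = 0.1 each). Even at its highest, 6297 to 7262 counts per library, globin RNA was a minor part of the libraries.

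Levels were set beside each other per kilobase of the longest coding transcript (CPM per kilobase). In Tespa1-/- LSKs after 5-FU the order was Hba-a1 (186.4 ± 10.4), Hbb-bt (125.2 ± 16.2), Hbb-bs (54.9 ± 12.4) and Hba-a2 (35.1 ± 8.52; SD, n = 3 each), and no neighbours in that order overlapped. In Tespa1+/+ LSKs after 5-FU the order was Hbb-bt (13.8 ± 3.93), Hba-a1 (4.33 ± 2.90), Hbb-bs (3.47 ± 1.72) and Hba-a2 (0.26 ± 0.44), where Hba-a1 and Hbb-bs overlapped. In untreated Tespa1+/+ LSKs all neighbours overlapped, with means from 0.57 to 3.36, and in untreated Tespa1-/- LSKs only Hbb-bt and Hbb-bs did not. Hbb-bt thus led in the treated Tespa1+/+ libraries and Hba-a1 in the treated Tespa1-/- libraries.

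The ratio of alpha-globin to beta-globin counts per kilobase was 1.38, 1.25 and 1.10 in Tespa1-/- and 0.182, 0.561 and 0.105 in Tespa1+/+ libraries after 5-FU, without overlap (exact permutation p = 0.1, two-sided, which is the lowest value possible). In untreated libraries it was 0.396, 0.975 and 1.26 in Tespa1+/+ and 0.590, 1.16 and 0.921 in Tespa1-/- (exact permutation p = 1). Between treated and untreated libraries of 1 genotype the ranges overlapped (exact permutation p = 0.2 in each genotype). The deposited FPKM values give lower ratios, 0.77 to 0.96 in Tespa1-/- after 5-FU, because they divide Hba-a1 by 1193 bases and Hbb-bs by 1379 bases, each the sum of its annotated transcript lengths, and Hbb-bt by the 703 bases of its single transcript. By deposited FPKM, Hbb-bt (124.9) stood above Hba-a1 (109.0) as a mean of the Tespa1-/- libraries after 5-FU, the reverse of the order per coding transcript.

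Within the beta pair, Hbb-bt held 71.1% (exact 95% interval 69.4% to 72.8%), 76.5% (75.0% to 77.9%) and 68.2% (66.5% to 69.8%) of the beta-globin counts in Tespa1-/- LSKs after 5-FU. In Tespa1+/+ LSKs after 5-FU it held 81.1%, 73.3% and 90.7%, so the ranges overlapped (exact permutation p = 0.2). Untreated Tespa1+/+ libraries spread from 30.4% to 85.9% on 56 to 85 beta-globin counts each. Within the alpha pair, Hba-a2 held 10.6% to 16.7% of the counts in Tespa1-/- LSKs after 5-FU and 0% to 7.64% in Tespa1+/+ LSKs after 5-FU (exact permutation p = 0.1, the lowest value possible). The upper limits of the exact 95% intervals of these Tespa1+/+ libraries were 4.86%, 13.3% and 13.2%. In untreated libraries the share ran from 0% to 16.9% in Tespa1+/+ and from 11.1% to 34.1% in Tespa1-/- (exact permutation p = 0.4). The intervals cover counting error only, and reads that fit both genes of a pair can move these shares.

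**Figure D4:**
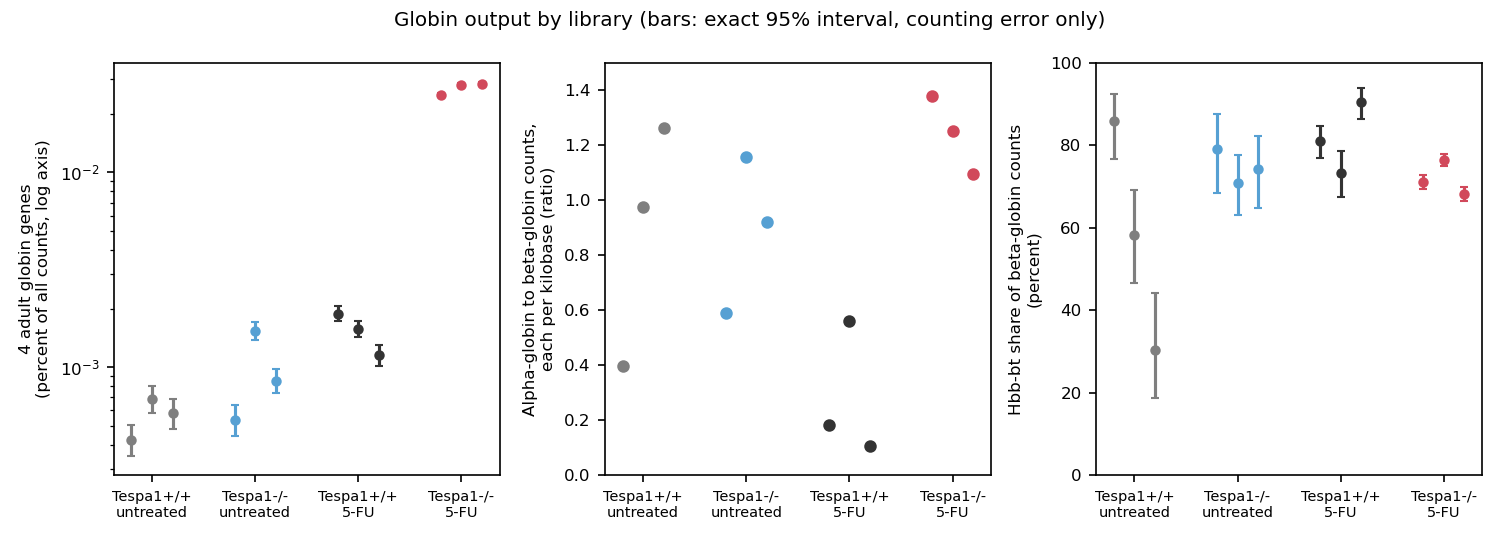
Share of all counts on the 4 adult globin genes (left, log axis), ratio of alpha-globin to beta-globin counts per kilobase (middle) and share of Hbb-bt among beta-globin counts (right), with 1 point per library and, left and right, exact 95% intervals for counting error. Tespa1-/- LSKs after 5-FU lie at 0.0250% to 0.0285% on the left and at 1.10 to 1.38 in the middle, above all 3 Tespa1+/+ libraries after 5-FU, whereas the groups overlap on the right.

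Of the 13 other globin genes listed, 11 had values and none passed the filter on low counts in any comparison. The embryonic beta-like genes Hbb-y, Hbb-bh0, Hbb-bh1, Hbb-bh2 and Hbb-bh3 had 0 counts in all 12 libraries, and Hba-x, the embryonic alpha-like gene, had 0 counts in Tespa1-/- LSKs after 5-FU and 2 to 6 counts over the 3 libraries of each other group.

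Genes around heme and globin were read from lists at the genotype comparison after 5-FU, where the median log2 fold change over all genes was -0.01. Of all genes tested there, 7.34% were called higher and 5.78% lower. Of 27 genes of heme and iron supply, 9 rose and 1 fell, with a median log2 fold change of 0.29. The largest rises were Slc40a1, the iron exporter ferroportin, from 3.05 ± 1.07 to 19.0 ± 0.730 CPM (SD, n = 3 each, log2 fold change 2.63, edgeR adjusted p = 0.00026), and Steap3, an endosomal ferrireductase, from 12.5 ± 1.78 to 25.4 ± 8.26 CPM (log2 fold change 1.02, edgeR adjusted p = 0.018). Isca1, an iron-sulfur cluster assembly factor, fell by 0.87 on the log2 scale (edgeR adjusted p = 0.048, 29.2 to 70.2 CPM in the Tespa1-/- libraries against 93.1 to 94.9 CPM) and had already been lower in untreated Tespa1-/- LSKs (adjusted p = 0.012). Of the 8 tested genes of heme breakdown and export, 4 rose and 0 fell (median log2 fold change 0.14), among them Blvrb, which reduces biliverdin (log2 fold change 1.82, edgeR adjusted p = 5.4e-05), and Hmox1, which opens the heme ring (log2 fold change 1.73, edgeR adjusted p = 0.017).

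Of the 13 globin regulators, 6 rose and 1 fell, with a median log2 fold change of 0.03, where 7.34% of the genes tested were called higher and 5.78% lower. Klf1, the factor that drives adult beta-globin, rose from 10.2 ± 3.47 to 34.2 ± 3.00 CPM (SD, n = 3 each, log2 fold change 1.75, edgeR adjusted p = 0.0015), and Epor, the erythropoietin receptor, from 5.95 ± 0.724 to values of 15.7 to 16.4 CPM (log2 fold change 1.42, edgeR adjusted p = 0.00087). Lmo2, a partner of GATA1 and TAL1, fell by 0.27 on the log2 scale (edgeR adjusted p = 0.020). In the interaction test Klf1 had a log2 value of 0.59 (edgeR adjusted p = 0.48) and Epor of -0.24 (adjusted p = 0.91), and neither passed. In Tespa1+/+ LSKs, 6 of the 13 regulators rose with 5-FU, where 3.77% of the genes tested were called higher and 4.18% lower. Among the 6 were Epor, by 3.09 (SE 0.80, edgeR adjusted p = 0.047), and Klf1, by 1.57 (edgeR adjusted p = 0.020). Of the 3 globins tested there, Hbb-bt alone was called. Of the 5 listed neighbours of the alpha-globin genes (median log2 fold change -0.10), 1 was called, Sh3pxd2b, which fell by 0.94 on the log2 scale (edgeR adjusted p = 0.0025).

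All 18 genes of the red cell membrane list had a log2 fold change above 0, and 15 rose, with a median of 2.41. Slc4a1, the band 3 anion exchanger of the mature red cell, rose most, from 0 to 0.83 CPM in the Tespa1+/+ libraries to 88.7 to 100.5 CPM in the Tespa1-/- libraries (log2 fold change 8.37, edgeR adjusted p = 1.4e-05, on 21 counts in all on the low side). Slc4a1 passed the filter on low counts through the Tespa1-/- libraries, where it was high, and could then hardly fail to differ. Sptb, the beta chain of spectrin, rose from 12.7 ± 2.41 to 146.7 ± 7.33 CPM (SD, n = 3 each, log2 fold change 3.53, edgeR adjusted p = 6.1e-07). Without treatment, 6 of the 15 genes of this list that could be tested were higher in Tespa1-/- LSKs and 0 were lower. Of all 17055 genes tested there, 1.64% were called higher and 3.59% lower.

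Markers of other cell types were read in the same comparison. The 16 neutrophil markers summed to 5601 to 5891 CPM in Tespa1-/- LSKs after 5-FU and to 2472 to 2684 CPM in Tespa1+/+ LSKs after 5-FU. Of the 16, 15 rose, with a median log2 fold change of 7.27, beside 3.57 for the members. The sum was already 2525 to 2619 CPM in untreated Tespa1+/+ LSKs, where Camp, Ltf, Cd177 and Ly6g had 0 counts. Only 9 of the 16 could be tested for 5-FU in Tespa1+/+ LSKs. The others passed the filter here through the Tespa1-/- libraries, where they were high, and could then hardly fail to differ. None of the 16 was at 0 in the treated Tespa1-/- libraries, whereas Fcnb, Cd177 and Retnlg were at 0 in all treated Tespa1+/+ libraries. The other lists had fewer calls, beside 7.34% of all genes called higher and 5.78% lower. The megakaryocyte markers summed to 278 to 295 against 217 to 236 CPM (2 of 10 rose, 1 fell), the monocyte and macrophage markers to 249 to 265 against 226 to 239 CPM (1 of 10 rose, 1 fell), the B-lymphoid markers to 327 to 344 against 287 to 299 CPM (2 of 8 rose) and the T and NK markers to 57.5 to 66.9 against 32.9 to 40.3 CPM (2 of 7 tested rose). Of the 12 LSK and stem markers, 8 fell and 1 had a log2 fold change above 0 that did not pass. The part of these cell types in the globin and heme values was not tested.

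**Figure D5:**
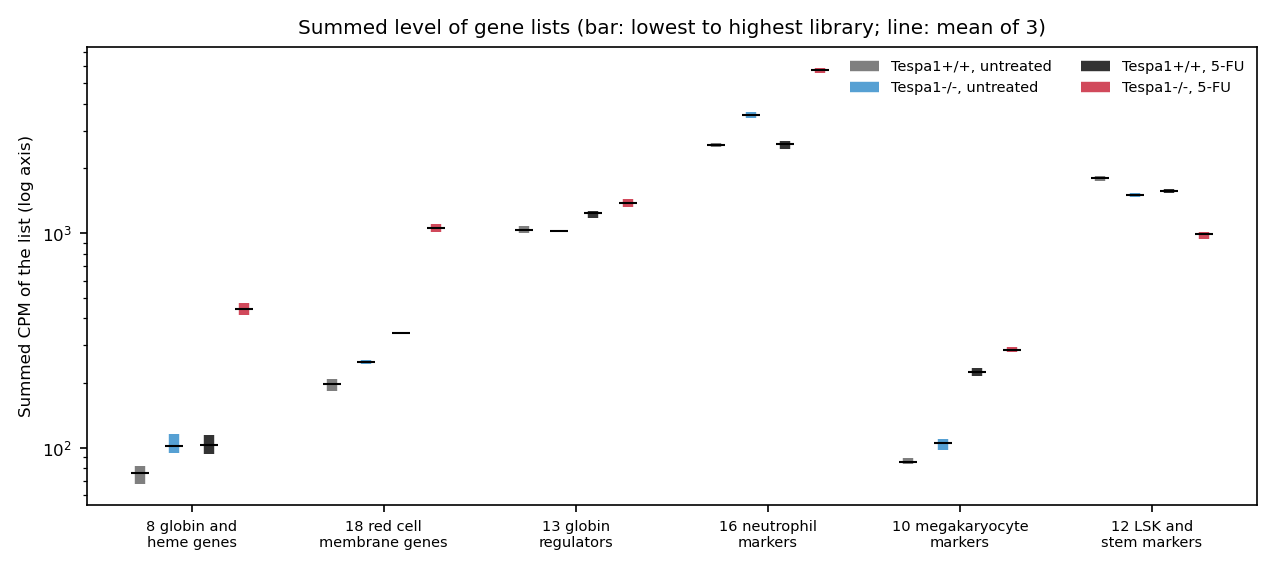
Summed CPM of the measured members and of 5 other gene lists (y axis, log scale), with a bar from the lowest to the highest of 3 libraries and a line at their mean. The members, the red cell membrane list and the neutrophil list are highest in Tespa1-/- LSKs after 5-FU (413.7 to 471.6, 1012 to 1106 and 5601 to 5891 CPM), and the LSK and stem list is lowest there (939 to 1016 CPM).

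The genes most like the globins were sought among 18688 other genes by Pearson's r of log2(CPM + 0.5) over the 12 libraries, which here mostly measures the step to the 3 treated Tespa1-/- libraries. For the summed adult globins they were Ehbp1l1 (r = 0.98), S100a9, Lcn2, Ltf and Il2rb, and for Alas2 they were Wfdc21 (r = 0.99), Prg3, Chil3, Cd177 and Retnlg. S100a9, Lcn2, Ltf, Cd177 and Retnlg are on the neutrophil list, and none of the 10 is on the red cell list. S100a9 had a mean of 316 CPM in Tespa1-/- after 5-FU and of 1.30 CPM in Tespa1+/+ after 5-FU, and Ehbp1l1 of 156 and 94.0 CPM.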

How the data were processed

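RNA-seq of poly-A RNA from LSKs was used, in 4 groups of 3 libraries taken from the labels. Raw read counts for each gene were deposited by the authors. FPKM values were deposited beside them and equal the counts divided by the library total and by 1 length per gene. Per the labels, a stranded paired-end kit was used, and the submitters' processing notes name GRCm38, CASAVA 1.8, HISAT2, StringTie and edgeR. The annotation release and the use of strand in counting are not given in the sources used here.

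Differential expression was computed with edgeR 4.0.16 in R 4.3.3 (filterByExpr with a minimum count of 10, TMM, glmQLFit and glmQLFTest) on the 6 libraries of each comparison, and on all 12 for the interaction. P-values were adjusted by the Benjamini-Hochberg method over all genes tested, and genes were called at an adjusted p below 0.05. CPM uses TMM-scaled totals. Shares of counts use plain totals and two-sided exact permutation tests over libraries. Lengths, overlaps and shared transcript stretches come from GENCODE M21 (GRCm38), promoters from RefSeq (GRCm38.p6). SciPy 1.17.1 ran the permutation tests and matplotlib 3.10.9 drew the plots, under Python 3.11 with NumPy 2.4.6 and pandas 2.3.3.

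The members and gene lists were chosen with earlier results of these data known. Named genes are all members, the other heme enzymes (1 of them is not reported here), the 2 largest rises and 2 largest falls of each further list among genes called after 5-FU between genotypes, and the 5 genes most like the summed globins and most like Alas2. Marker genes outside this rule were picked with their values in view. The scripts were checked on simulated counts, and every pair of libraries of a group differed by more than counting noise. The alternatives were DESeq2 1.42.0, RLE factors, plain library totals, no filter, at least 10 counts in every library, 1 fit over 12 libraries, the replicate number as a block, near-identical globins summed, each library left out, globin shares of TMM-scaled totals, and the study's thresholds (fold change above 1.5 and unadjusted P below 0.05).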

Additional observations from a re-analysis of the deposited data

Results flagged for a closer look

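The genotype difference after 5-FU minus that without treatment, on the log2 scale, passed the interaction test (edgeR's quasi-likelihood test, adjusted p below 0.05) for the genes below, beside 3.02% of all genes called higher and 1.99% lower. Among the globins it was 4.66 for Hba-a1, 5.56 for Hba-a2, 3.83 for Hbb-bs and 2.17 for Hbb-bt. The call of Hba-a2 was lost with DESeq2 and in 9 of 12 fits without 1 library. Among the heme enzymes it was 8.89 for Alas2, 0.81 for Fech, 0.64 for Alas1 and 1.68 for Cpox. Hba-a2 and Alas2, as well as Slc4a1 below, passed the filter on low counts mainly through the treated Tespa1-/- libraries, and their values are not read as sizes. The genes of the other lists were picked for their difference between genotypes after 5-FU, which is a part of the interaction, so their passing is no independent support. It was 1.99 for the iron exporter Slc40a1, 1.10 for Blvrb, 7.10 for Slc4a1 and 2.08 for Sptb, and -0.76 for Sh3pxd2b, the 1 gene whose difference moved down. The untreated side of these differences rests on few counts for the globins, Alas2 and Slc4a1, so their sizes are uncertain: there were 4 counts of Alas2 over 3 untreated Tespa1-/- libraries. Over whole lists, the interaction passed for 5 of 18 genes of the red cell membrane list, 5 of 27 of heme and iron supply, 1 of 9 of heme breakdown and export, 1 of 5 neighbours of the alpha-globin genes and 0 of 13 globin regulators by edgeR (2 at an unadjusted p below 0.05, and 1 called by DESeq2). Among the marker lists of other cells it passed for 8 of 16 neutrophil, 3 of 8 B-lymphoid, 1 of 10 monocyte and macrophage and 3 of 12 LSK and stem markers, the last 3 all lower, and for 0 of 10 megakaryocyte (1 at an unadjusted p below 0.05, 0 by DESeq2) and 0 of 6 T and NK markers (2 and 0). Of the neutrophil markers that passed, Fcnb and Retnlg were too low to be tested between genotypes without treatment or for 5-FU in Tespa1+/+ LSKs.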

How the results depend on the processing

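For the genotype comparison after 5-FU and for 5-FU in Tespa1-/- LSKs, the number of called members and the number of called genes stayed within 1.5 times the reported value under every alternative run. Without treatment, the number of called members went from 1 to 0 with no filter, with the study's thresholds, with the replicate block and over the range of 0 to 1 when each library was left out, and the number of called genes from 892 to 1427 with DESeq2, 454 with the replicate block and 338 to 808 with a library left out, lowest without untreated Tespa1-/- replicate 2. For 5-FU in Tespa1+/+ LSKs, called members went from 1 to 2 with DESeq2, and called genes from 1352 to 2062 with DESeq2, 2113 with all 12 libraries in 1 fit and 783 to 1102 with a library left out, lowest without 5-FU Tespa1+/+ replicate 1. For the interaction, called genes went from 936 to 1535 with DESeq2, 1941 with the study's thresholds and 573 to 862 with a library left out, lowest without untreated Tespa1-/- replicate 2, while called members ran from 4 to 6. The replicate numbers share no batch by the labels, and deviations of same-numbered libraries correlated at -0.065 to 0.027, so the replicate block was not used as a pairing. Under it, Alad without treatment had an adjusted p of 0.092 (edgeR), and no other call among the members changed. No called member reversed its sign. The comparison of alpha-to-beta ratios by deposited FPKM was chosen after seeing the data. The cause of these shifts was not tested.

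Depth limits the low side of the globin and Alas2 comparisons, where 0 to 133 counts of a globin gene other than Hbb-bt, or of Alas2, stood in a treated Tespa1+/+ library. Filters on low counts and the split of reads within the alpha and beta pairs touch these genes most.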

Other observations

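Alad was higher in Tespa1-/- than in Tespa1+/+ LSKs by 0.58 without treatment and by 1.12 after 5-FU on the log2 scale, and it had a log2 fold change of -0.03 with 5-FU in Tespa1+/+ LSKs (edgeR adjusted p = 0.93). Urod had a larger fitted change with 5-FU than between the genotypes, 0.56 in Tespa1+/+ and 0.68 in Tespa1-/- LSKs against 0.30 without treatment and 0.43 after 5-FU, of which only the 0.68 passed edgeR's test. Bach1, the heme-sensing repressor of Hmox1, was lower in untreated Tespa1-/- LSKs, by 0.50 on the log2 scale (edgeR adjusted p = 0.0072), and had a log2 fold change of -0.12 after 5-FU (adjusted p = 0.56). It was named after its values were seen. The minor alpha-like gene Hbq1b had counts in Tespa1-/- LSKs after 5-FU alone, at a mean of 0.34 CPM, and was too low to be tested. All 11 other globin genes with values summed to 0.037 to 0.74 CPM in these libraries, so Hbq1b was near 0 in the lowest of them.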
